A study of Mus musculus with 10 samples.

Results

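Macrophages and monocytes are the phagocytic white blood cells of a tissue, and 37 genes that mark them or that they use were followed in interscapular brown adipose tissue (iBAT) of mice with and without matrix Gla protein (MGP). The genes are a named list of resident, inflammatory, lipid-associated and general macrophage genes and of monocyte chemokines and their receptors. The list was drawn up with earlier results of these data known. All 37 were found among the 27267 genes of the deposited table, and 35 of them passed the filter on low values (a mean of at least 10 normalized counts over all libraries), as did 13714 genes in all. *Timd4* and *Trem2* missed this filter and are given by their values. RNA of whole iBAT came from 5 wild-type mice and 5 mice labelled global *Mgp* knockout (*Mgp*-KO), which the study describes as pairs. All 10 mice carry the labels C57BL/6, male and 4 weeks of age, and all were fed chow. The knockout allele is Mgptm1Kry, which is carried in every cell of the animal, so that no tissue of these mice keeps a working gene by design. The study made the comparison to see how the transcriptome of iBAT differs without MGP, an extracellular protein that binds and inhibits bone morphogenetic proteins.

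Macrophages depend on the growth factor receptor CSF1R and on the transcription factor PU.1, the product of *Spi1*. Those that live in fat for long carry scavenger and mannose receptors such as CD163 and CD206 (the product of *Mrc1*) and clear debris and dying cells, whereas cells newly made from blood monocytes enter along chemokines, small secreted proteins read by receptors such as CCR1 and CCR2. Macrophages that take up lipid express another programme, with TREM2, GPNMB and galectin-3, the product of *Lgals3*.

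The libraries fell into sets that differed in depth. Replicates 1 to 3 of both groups held 19616366 to 22252260 reads on genes, with 0.771 to 1.72% of them from mitochondrial ribosomal RNA. Replicates 4 and 5 held 9253793 to 13281873 reads, with 6.50 to 16.7% from mitochondrial ribosomal RNA, the highest share being in labelled *Mgp*-KO 4. *Mgp*, the targeted gene, had 634 to 805 reads in wild type 1 to 3 and 0, 1 and 1 reads in labelled *Mgp*-KO 1 to 3. However, it had 309 reads in the library labelled *Mgp*-KO 4 and 282 in that labelled *Mgp*-KO 5, beside 782 and 485 in wild type 4 and 5. The presence of *Mgp* thus went against the knockout label of those libraries. In normalized counts this was 500 and 331 against 1146 and 839, so *Mgp* was still lower there (log2 fold change -1.27 within replicates 4 and 5, adjusted p = 0.679 by limma). *Xist*, an RNA of females, was at 5094 normalized counts in wild type 2 and at 0.754 to 44.0 in the other 9 libraries, against its label of male. The tissue label was borne out by 10 brown adipocyte genes, *Ucp1* among them, which summed to 162867 to 419226 normalized counts per library. All labels were kept as given. Results are given for all libraries, within each set, and without the libraries in doubt. The set cannot be told apart from whatever else differed between these libraries.

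The comparison of the groups found no macrophage or monocyte gene past the threshold (adjusted p under 0.05) in limma's test over all 10 libraries. This was 0 of 35 tested members, where 9 of all 13714 genes (0.0656%) passed. The lowest adjusted p of a member was 0.20, for *Lgals3*. At an unadjusted p under 0.05 there were 5 members (14.3%), *Lgals3*, *Mpeg1*, *Ccr1*, *Ccl6* and *Ctss*, each with higher values in the libraries labelled *Mgp*-KO, where 4.67% of all genes were higher and 5.69% lower. Of the 35 members, 28 had a positive log2 fold change (labelled *Mgp*-KO over wild type) and 7 a negative one, against 52.7% positive among all genes tested. The median log2 fold change was 0.36 for the members and 0.03 for all genes. Without labelled *Mgp*-KO 4, the log2 fold change of 11 of the 28 positive members was lower by over 1.5 times or below 0 (*Ptprc*, *Itgam*, *Itgax*, *Fcgr1*, *Tyrobp*, *Cx3cr1*, *Ccl2*, *Ccl9*, *Cybb*, *Ncf1* and *Gpnmb*), and that of *Cd68* and *Csf1r* was higher by over 1.5 times. The 5 libraries labelled *Mgp*-KO lay above all 5 wild-type libraries for 3 members, *Lgals3*, *Mpeg1* and *Ccr1* (8.57% of the members, where 3.50% of all genes did not overlap, 1.39% being higher and 2.11% lower), and no member lay entirely below. After quantile normalization this was 1 member, *Lgals3*, beside 3.59% of all genes. In bulk tissue, more cells of a type and more RNA per cell cannot be told apart.

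A limma fit with the set of replicates as a further term called no member either, where 324 of all genes (2.36%) were called. The same 5 members had an unadjusted p under 0.05 there (14.3%, where 19.3% of all genes did). On the recovered reads edgeR called 0 members, where 0.0219% of all genes were called, and 6 members (17.1%) and 11.4% of all genes had an unadjusted p under 0.05. DESeq2 called 1 member, *Lgals3*, where 2.26% of its genes were called and 0.997% were called higher. With the set term DESeq2 called 4 members, *Lgals3*, *Mpeg1*, *Ccr1* and *Ccl6*, all higher in the libraries labelled *Mgp*-KO, where 7.42% of its genes were called and 3.50% were called higher. Whether these 4 members were called thus depended on the test.

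**Figure D1:**
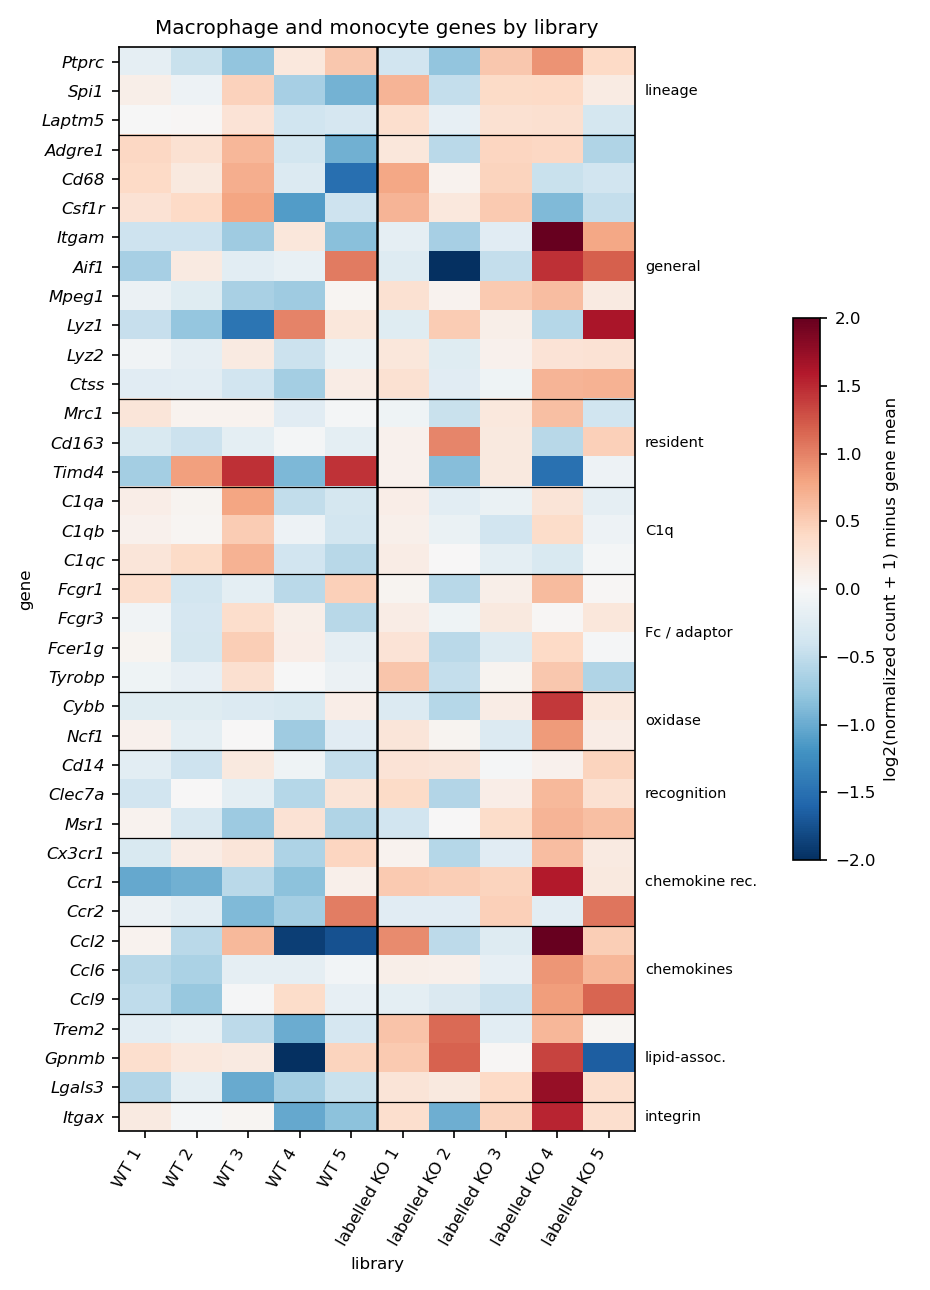
Each row is 1 of the 37 genes and each column 1 library, and the colour is log2(normalized count + 1) minus the gene's mean over the 10 libraries, with a scale that ends at 2 in both directions. The library labelled *Mgp*-KO 4 is the highest of all for 17 of the 35 tested genes, and wild type 4 is the lowest for 11.

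The difference was clearest for *Lgals3*, *Mpeg1* and *Ccr1*. *Lgals3* lies on chromosome 14, chr14:47367751-47386160 on the plus strand (GRCm38, GENCODE annotation), and encodes galectin-3, a lectin that phagocytes secrete and place around damaged membranes. It had 40.8, 53.9, 30.1, 38.1 and 45 normalized counts in wild type 1 to 5. In labelled *Mgp*-KO 1 to 5 it had 73.9, 71.1, 82.1, 210 and 78.5. All 5 of the latter stood above all 5 of the former, and labelled *Mgp*-KO 4 stood far above the rest. The means were 41.6 ± 8.76 and 103 ± 60.1 (SD, n = 5 each), and the log2 fold change was 1.18 ± 0.32 (SE) with an adjusted p of 0.20 by limma. The adjusted p was 0.0596 with the set term, 0.0266 by DESeq2 and 0.00641 by DESeq2 with the set term. Leaving out labelled *Mgp*-KO 4 gave 0.88 (adjusted p = 0.106 by limma), and the sets gave 0.88 (replicates 1 to 3) and 1.61 (replicates 4 and 5).

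*Mpeg1*, at chr19:12460779-12465283 on the plus strand, encodes perforin-2, a pore-forming protein that macrophages use against engulfed bacteria. It had 129, 119, 89.0, 85.0 and 144 normalized counts in wild type 1 to 5, and 173, 147, 203, 217 and 159 in labelled *Mgp*-KO 1 to 5. The groups did not overlap, but the gap between wild type 5 and labelled *Mgp*-KO 2 was narrow. The log2 fold change was 0.68 ± 0.21 (SE; adjusted p = 0.252 by limma and 0.0302 by DESeq2 with the set term), and it was of like size in both sets, at 0.63 (replicates 1 to 3) and 0.75 (replicates 4 and 5).

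*Ccr1*, at chr9:123962124-123968692 on the minus strand, encodes a receptor for inflammatory chemokines on monocytes, macrophages and neutrophils. It was low throughout, with 7, 7, 10, 4 and 7 reads in wild type 1 to 5 and 22, 21, 19, 22 and 11 in labelled *Mgp*-KO 1 to 5. In normalized counts this was 5.01, 5.24, 7.35, 5.86 and 12.1 against 16.6, 16.1, 15.6, 35.6 and 12.9. Again no library labelled *Mgp*-KO fell below a wild-type one, although wild type 5 and labelled *Mgp*-KO 5 almost met. The log2 fold change was 1.30 ± 0.42 (SE; adjusted p = 0.271 by limma and 0.0282 by DESeq2 with the set term), and came to 1.33 and 1.25 in replicates 1 to 3 and 4 to 5.

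**Figure D2:**
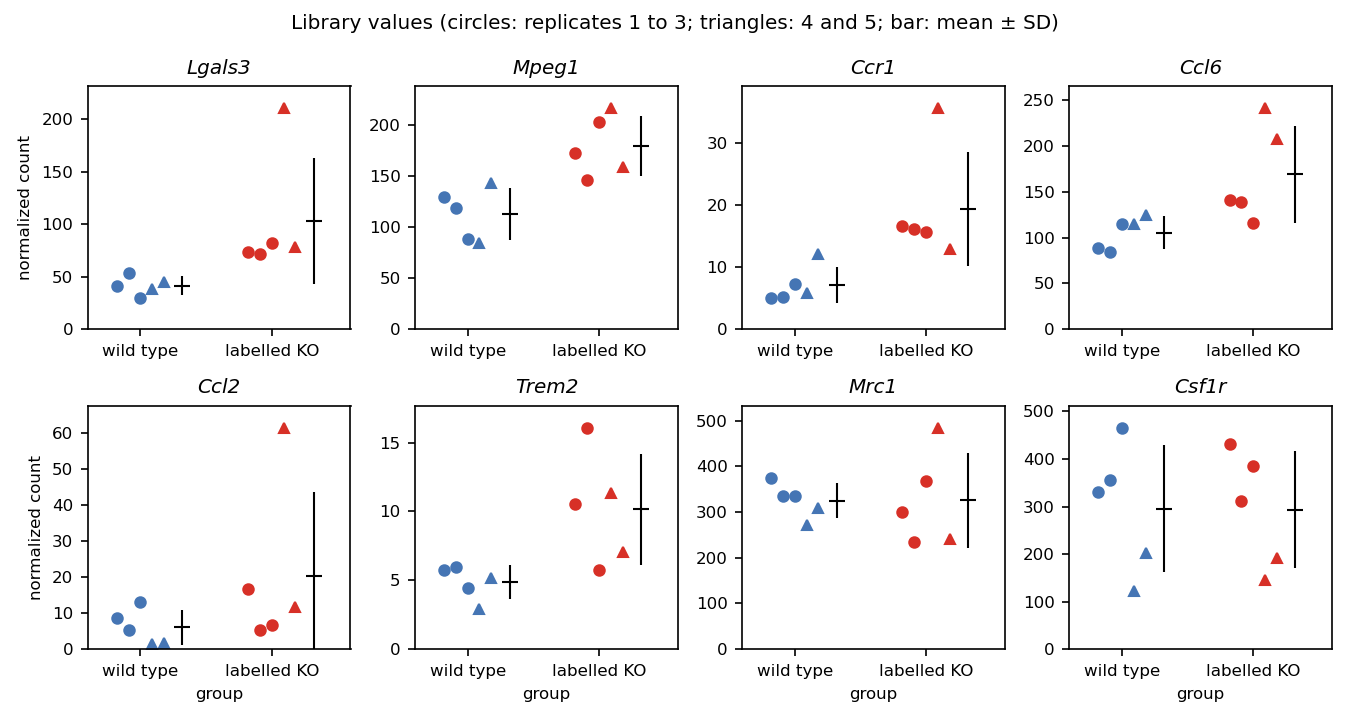
Normalized counts of 8 genes in each library are shown as points by group, and the bars are the mean ± SD of 5 libraries. *Lgals3*, *Mpeg1* and *Ccr1* do not overlap between the groups, *Mrc1* and *Csf1r* have nearly the same mean in both, and labelled *Mgp*-KO 4 is the highest library for *Lgals3*, *Mpeg1*, *Ccr1*, *Ccl6*, *Ccl2* and *Mrc1*.

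The 250 bases before the transcription start of 5 members are given. These are the members that DESeq2 with the set term called higher (*Lgals3*, *Mpeg1*, *Ccr1* and *Ccl6*) and, beside them, *C1qc*. *C1qc* had the most negative log2 fold change of the tested members over all libraries (-0.16). It was not called, and its log2 fold change was positive (0.29) within replicates 4 and 5. The sequences come from RefSeq on GRCm38.p6 and are written 5′ to 3′ on the strand of the gene. Capitals mark GGAAGT or its reverse complement ACTTCC, a longer form of the GGAA that ETS factors such as PU.1 bind. GGAA alone was not searched. The windows are chr14:47373610-47373859 (plus strand) for *Lgals3*, chr19:12460520-12460769 (plus) for *Mpeg1*, chr9:123968693-123968942 (minus) for *Ccr1*, chr11:83593088-83593337 (minus) for *Ccl6* and chr4:136892915-136893164 (minus) for *C1qc*. The RefSeq starts of *Lgals3* and *C1qc* (GENCODE span chr4:136889804-136893065) lie inside the GENCODE spans of these genes, which begin at earlier starts. All of the *Lgals3* window and part of the *C1qc* window thus lie within those spans.
Lgals3: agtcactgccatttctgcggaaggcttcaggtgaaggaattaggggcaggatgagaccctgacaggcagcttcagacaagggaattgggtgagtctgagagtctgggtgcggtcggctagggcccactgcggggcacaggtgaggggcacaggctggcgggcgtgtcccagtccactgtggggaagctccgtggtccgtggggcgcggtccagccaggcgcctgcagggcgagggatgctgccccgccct
Mpeg1: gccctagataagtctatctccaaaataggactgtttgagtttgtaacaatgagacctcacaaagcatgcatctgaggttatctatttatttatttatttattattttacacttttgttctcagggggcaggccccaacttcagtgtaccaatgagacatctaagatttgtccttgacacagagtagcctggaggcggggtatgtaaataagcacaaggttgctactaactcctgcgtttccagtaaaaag
Ccr1: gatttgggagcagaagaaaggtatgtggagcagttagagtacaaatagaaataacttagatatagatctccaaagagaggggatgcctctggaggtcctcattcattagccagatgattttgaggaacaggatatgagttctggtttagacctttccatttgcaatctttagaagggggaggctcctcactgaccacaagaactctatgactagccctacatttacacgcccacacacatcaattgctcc
Ccl6: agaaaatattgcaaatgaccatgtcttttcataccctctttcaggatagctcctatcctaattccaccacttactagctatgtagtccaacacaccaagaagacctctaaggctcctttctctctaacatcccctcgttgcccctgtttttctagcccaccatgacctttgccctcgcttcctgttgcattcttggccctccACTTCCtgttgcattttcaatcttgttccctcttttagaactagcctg
C1qc: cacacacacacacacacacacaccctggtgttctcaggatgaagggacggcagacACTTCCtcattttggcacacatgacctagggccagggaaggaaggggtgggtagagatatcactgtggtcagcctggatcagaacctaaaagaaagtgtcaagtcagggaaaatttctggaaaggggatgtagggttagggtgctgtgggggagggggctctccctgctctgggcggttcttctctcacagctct
The windows of *Lgals3*, *Mpeg1* and *Ccr1* hold no GGAAGT, that of *Ccl6* holds 1 at 48 bases before the start, and that of *C1qc* holds 1 at 195 bases before the start. Over the 300 bases from 250 before to 50 after the start, promoters were found for 29 of the 37 members and for 27025 genes. GGAAGT was in 14 of the 29 (48.3%) and in 26.5% of all genes, on either strand. The longer GAGGAAGT, which contains it, was in 2 members, *C1qc* and *Ctss* (6.90%), and in 3.69% of all genes. TTGCNNAA, the letters of C/EBP factors, was in 4 members (13.8%) and in 12.2% of all genes, and TGANTCA, those of AP-1, was in 6 members (20.7%) and in 8.97% of all genes. None of these 4 motifs was found in the promoters of *Lgals3*, *Mpeg1* and *Ccr1*. These are matches of letters only, and the absence of a match concerns this window alone.

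Among the chemokines, *Ccl6* had the steadiest difference and *Ccl2* the most uneven one. *Ccl6*, an attractant of macrophages at chr11:83587882-83593087 on the minus strand, had 88.7, 83.9, 115, 114 and 125 normalized counts in wild type 1 to 5 and 141, 139, 116, 241 and 207 in labelled *Mgp*-KO 1 to 5. Each library labelled *Mgp*-KO was above the wild-type library of the same number, but labelled *Mgp*-KO 3 lay below wild type 5. Such an order in all 5 numbers was seen for 4 tested members, *Lgals3*, *Mpeg1*, *Ccr1* and *Ccl6*, and for 8.95% of all genes. The log2 fold change of *Ccl6* was 0.64 ± 0.24 (SE; adjusted p = 0.352 by limma and 0.0127 by DESeq2 with the set term). Without labelled *Mgp*-KO 4 and 5 it was 0.34.

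*Ccl2*, the main attractant of CCR2-bearing monocytes, had 8.58, 5.24, 13.2, 1.47 and 1.73 normalized counts in wild type 1 to 5 and 16.6, 5.35, 6.57, 61.5 and 11.7 in labelled *Mgp*-KO 1 to 5. The high value was that of labelled *Mgp*-KO 4 and the low ones were those of wild type 4 and 5, whereas replicates 1 to 3 of both groups overlapped. Its log2 fold change of 1.37 ± 0.74 (SE; adjusted p = 0.561 by limma) was the largest of any member, yet it was -0.0032 for replicates 1 to 3 alone and 3.44 for replicates 4 and 5 alone. The values of 1.47 and 1.73 are 1 read each, so the latter rests on very few reads. *Ccl9*, another attractant next to *Ccl6* in the genome, had a log2 fold change of 0.44 ± 0.35 (SE; adjusted p = 0.716).

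The values of the CCL2 receptor overlapped widely between the groups. *Ccr2* had 47.9, 44.9, 27.9, 32.2 and 107 normalized counts in wild type 1 to 5 and 44.5, 44.4, 73.1, 45.3 and 111 in labelled *Mgp*-KO 1 to 5. Replicate 5 was high in both groups and the other libraries overlapped. Its log2 fold change was 0.35 ± 0.39 (SE; adjusted p = 0.812). *Cx3cr1*, the receptor of patrolling monocytes and of many tissue macrophages, had 0.04 ± 0.29 (SE; adjusted p = 0.976), with its lowest value of 41.0 in wild type 4 and its highest of 98.7 in labelled *Mgp*-KO 4.

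Of the 9 genes that mark macrophages in general, 7 had a positive log2 fold change, with a median of 0.26, and limma called none of them over all libraries. Besides *Mpeg1*, whose groups did not overlap, *Ctss* had means of 104 and 154, *Itgam* of 16.9 and 43.4 and *Lyz1* of 32.8 and 49.0 normalized counts in wild type and in the libraries labelled *Mgp*-KO. Nearly equal means were seen for *Csf1r*, *Adgre1* and *Cd68*. *Csf1r* had 123 to 465 normalized counts in wild type (median 330) and 146 to 433 in the libraries labelled *Mgp*-KO (median 311), which gave a log2 fold change of 0.02 ± 0.40 (SE; adjusted p = 0.991). Exons of *Csf1r* overlap those of *Hmgxb3* on the opposite strand, as those of *Ncf1* do with *Gtf2ird2*, and reads there cannot be assigned without the strand. The spread of *Csf1r* within each group followed the sets, since replicates 4 and 5 had 123 to 202 and replicates 1 to 3 had 311 to 465. *Adgre1*, which encodes the F4/80 antigen, had a log2 fold change of -0.03 ± 0.35 (adjusted p = 0.984), and *Cd68*, a lysosomal glycoprotein of phagocytes, had 0.18 ± 0.41 (adjusted p = 0.916). *Csf1r*, *Adgre1* and *Cd68* belong to 5 genes listed as macrophage markers. Each of them was present in every library, with 34.6 to 109 normalized counts for *Adgre1* and 24.2 to 121 for *Cd68*. On the same list, *Fcgr1* had a log2 fold change of 0.11 and *Mertk* of 1.0 (adjusted p = 0.946 and 0.325 by limma). DESeq2 with the set term called *Mertk* higher (adjusted p = 0.0284). *Ptprc*, the CD45 antigen of all white blood cells, had a log2 fold change of 0.26, *Spi1* had 0.46 and *Laptm5*, a lysosomal protein of blood cells, had 0.18, with adjusted p of 0.681 to 0.843. In this order the values were 0.26, 0.04 and 0.06 within replicates 1 to 3, and 0.27, 1.09 and 0.35 within replicates 4 and 5. *Aif1*, which encodes the actin-binding protein IBA1, had -0.07 ± 0.64 (adjusted p = 0.978), with a range of 3.06 to 46.9 normalized counts in the libraries labelled *Mgp*-KO.

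Per kilobase of exon, *Lyz2*, the lysozyme of macrophages, had the highest wild-type level of all members (440 normalized counts per kb), followed by *C1qa* (234), *C1qb* (190), *Tyrobp* (124) and *C1qc* (110). At the other end were *Ccr1* (2.51), *Itgax* (1.71) and *Trem2* (0.980). The length was the union of exons over all GENCODE transcripts, 4946 bases for *Trem2*. It can exceed that of a single transcript, so the order depends on it. Fold changes on the log2 scale were 0.26 for *Lyz2*, 0.59 for *Lyz1* and 0.55 for *Ctss*, a lysosomal protease for antigen processing (adjusted p = 0.653, 0.743 and 0.464). *Lyz1* and *Lyz2* share 16.1% and 15.4% of their 50-base windows with each other, so reads of the pair may have been lost or misplaced, and *Lyz1* is best read as uncertain. *Itgam*, the CD11b chain of the integrin of monocytes and neutrophils, had 12.1 to 26.4 normalized counts in wild type and 19.6, 13.8, 18.9, 126 and 38.7 in labelled *Mgp*-KO 1 to 5. Replicates 1 to 3 overlapped, while labelled *Mgp*-KO 4 was above every other library. Over all libraries the log2 fold change was 0.86 ± 0.54 (SE; adjusted p = 0.623), which became 0.16 and 1.91 in the sets and 0.35 without labelled *Mgp*-KO 4. The annotated gene *Gm49368* overlaps *Itgam* and shares 66.3% of its windows. *Itgax*, the CD11c chain of dendritic cells and inflammatory macrophages, had a log2 fold change of 0.67 ± 0.52 (SE; adjusted p = 0.698), with -0.13 and 1.86 in the sets, and shares 8.02% of its windows with *Itgad*.

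The genes of resident macrophages did not share a direction. *Mrc1* had the same mean in both groups, *Cd163* had a higher and *Timd4* a lower mean in the libraries labelled *Mgp*-KO, and none of these differences was past the threshold over all libraries. *Mrc1* had 375, 335, 334, 271 and 310 normalized counts in wild type 1 to 5 and 301, 234, 367, 484 and 241 in labelled *Mgp*-KO 1 to 5. The means were equal to 3 digits, 325 ± 38.1 and 325 ± 104 (SD, n = 5 each), and the values labelled *Mgp*-KO lay on both sides of wild type. Limma gave a log2 fold change of -0.04 ± 0.22 (SE; adjusted p = 0.965).

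*Cd163*, the receptor for haemoglobin bound to haptoglobin, had 152, 139, 165, 185 and 164 normalized counts in wild type 1 to 5 and 200, 371, 217, 128 and 264 in labelled *Mgp*-KO 1 to 5. Only labelled *Mgp*-KO 4 was not above all of wild type. The log2 fold change was 0.47 ± 0.26 (SE; adjusted p = 0.575 by limma), made up of 0.73 in replicates 1 to 3 (adjusted p = 0.143) and 0.08 in replicates 4 and 5. DESeq2 within replicates 1 to 3 gave an adjusted p of 0.0486, and there it called *Cd163* alone of the members, where 8.83% of its genes were called. Leaving out labelled *Mgp*-KO 4 and 5 gave 0.65 (adjusted p = 0.177 by limma).

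*Timd4*, which encodes the phosphatidylserine receptor TIM-4 of long-lived resident macrophages, had only 5, 16, 26, 2 and 11 reads in wild type 1 to 5 and 9, 4, 9, 1 and 5 in labelled *Mgp*-KO 1 to 5. In normalized counts this was 3.58, 12.0, 19.1, 2.93 and 19.0 against 6.78, 3.06, 7.39, 1.62 and 5.86. Wild type 2, 3 and 5 were above every library labelled *Mgp*-KO, while wild type 1 and 4 were among them. The means were 11.3 ± 7.92 and 4.94 ± 2.49 (SD, n = 5 each), a difference within the spread of wild type (two-sided exact permutation p = 0.198, and DESeq2 log2 fold change -1.15 with an adjusted p of 0.493).

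The C1q genes, whose products start the classical complement pathway and which resident macrophages express strongly, were the only group of 3 with all log2 fold changes below 0. They were -0.06 ± 0.24 for *C1qa*, -0.06 ± 0.21 for *C1qb* and -0.16 ± 0.25 for *C1qc* (SE; adjusted p = 0.962, 0.950 and 0.867). The highest library was wild type 3 for each of them. In replicates 1 to 3 the values were -0.40, -0.35 and -0.46, and in replicates 4 and 5 they were 0.46, 0.37 and 0.29, so that the sets had opposite signs. The interaction of set and genotype missed the threshold for all 3 genes (adjusted p = 0.469 to 0.483 by limma).

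The lipid-associated genes had higher means in the libraries labelled *Mgp*-KO, at low or uneven levels, and *Lgals3* was far higher in labelled *Mgp*-KO 4 than elsewhere. *Trem2*, the lipid-sensing receptor that gives this programme its name, had 8, 8, 6, 2 and 3 reads in wild type 1 to 5 and 14, 21, 7, 7 and 6 in labelled *Mgp*-KO 1 to 5. In normalized counts this was 5.72, 5.99, 4.41, 2.93 and 5.19 against 10.6, 16.1, 5.75, 11.3 and 7.03. Every library labelled *Mgp*-KO was above the wild-type library of its number, and labelled *Mgp*-KO 3 alone fell within the wild-type range. The means were 4.85 ± 1.23 and 10.1 ± 4.05 (SD, n = 5 each; two-sided exact permutation p = 0.0159, not adjusted over genes), and DESeq2 gave a log2 fold change of 1.04 with an adjusted p of 0.414.

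*Gpnmb*, a glycoprotein of lipid-laden macrophages, had 40.1, 36.7, 36.0, 4.40 and 43.3 normalized counts in wild type 1 to 5 and 46.0, 72.7, 32.0, 82.6 and 9.38 in labelled *Mgp*-KO 1 to 5. Wild type 4 and labelled *Mgp*-KO 5 were low, and the groups overlapped widely. For *Gpnmb* the log2 fold change was 0.57 ± 0.69 (SE; adjusted p = 0.827). Without wild type 4 it was -0.00600.

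Receptors and enzymes of engulfment and killing all missed the threshold. *Tyrobp* and *Fcer1g*, adaptors that pass the signals of Fc receptors and of TREM2, had log2 fold changes of 0.02 ± 0.27 and -0.06 ± 0.26 (SE; adjusted p = 0.987 and 0.963). The antibody receptors *Fcgr1* and *Fcgr3* had 0.11 and 0.20 (adjusted p = 0.946 and 0.802), and *Fcgr3* shares 9.58% of its windows with *Fcgr2b*. *Cybb* and *Ncf1*, subunits of the NADPH oxidase that makes superoxide, had 0.37 ± 0.33 and 0.42 ± 0.28 (SE; adjusted p = 0.744 and 0.646). *Cybb* had 288 normalized counts in labelled *Mgp*-KO 4 and 71.9 to 124 in the other 4 libraries of that group, and its log2 fold change was 0.06 once that library was left out. *Ncf1* was also highest in labelled *Mgp*-KO 4, with 71.2 normalized counts, and its log2 fold change was 0.25 without that library, 0.04 within replicates 1 to 3 and 0.98 within replicates 4 and 5. *Cd14*, the co-receptor for bacterial lipopolysaccharide, had 0.40 ± 0.21 (SE; adjusted p = 0.549), *Clec7a*, the beta-glucan receptor dectin-1, had 0.36, and the scavenger receptor *Msr1* had 0.51 (adjusted p = 0.748 and 0.655).

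**Figure D3:**
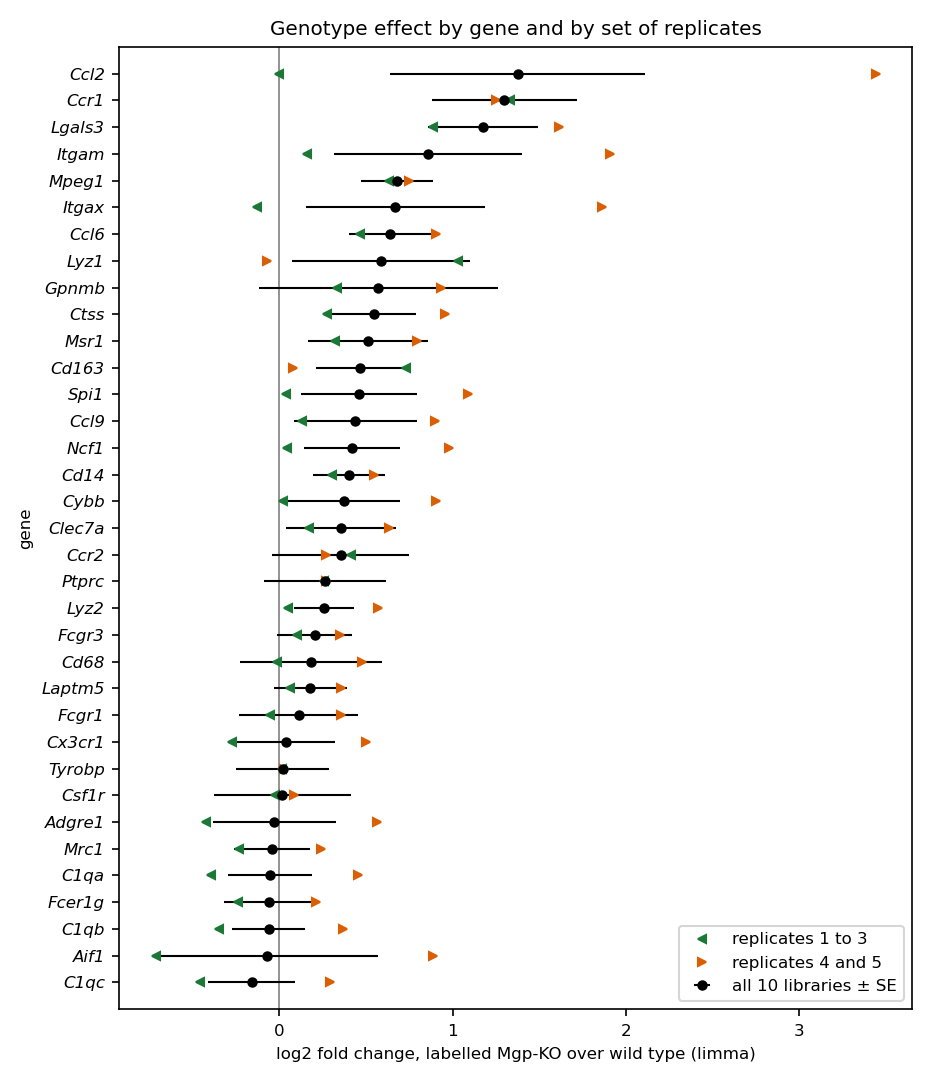
Black points are the log2 fold changes of the 35 tested genes over all 10 libraries with their SE (limma), and green and orange triangles those of replicates 1 to 3 and of replicates 4 and 5. *Mpeg1*, *Ccr1* and *Ptprc* have nearly the same value in both sets, while *Ccl2*, *Itgam* and *Itgax* have values near 0 within replicates 1 to 3 and 3.44, 1.91 and 1.86 within replicates 4 and 5.

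The inflammatory genes (*Itgax*, *Cd14*, *Clec7a*, *Cybb*, *Ncf1*, *Ccr1*, *Ccr2*, *Ccl2*, *Ccl6* and *Ccl9*) all had positive log2 fold changes over the 10 libraries, with a median of 0.43, against 0.21 for the resident genes *Mrc1* and *Cd163*, -0.06 for the C1q genes and 0.87 for *Gpnmb* and *Lgals3*. No member of any of these groups passed limma's test. The inflammatory median was 0.15 within replicates 1 to 3, where 8 of the 10 were positive, and 0.90 within replicates 4 and 5, where all 10 were. For each library the group's mean level on the log2 scale was set against its mean over the 10 libraries. The inflammatory genes then lay at -0.27, -0.40, -0.12, -0.59 and -0.20 in wild type 1 to 5 and at 0.21, -0.23, 0.05, 1.04 and 0.50 in labelled *Mgp*-KO 1 to 5. Labelled *Mgp*-KO 4 and 5 were the highest libraries, and labelled *Mgp*-KO 2 was within the range of wild type. The resident genes ranged from -0.18 to -0.04 in wild type and from -0.000722 to 0.26 in the libraries labelled *Mgp*-KO, with labelled *Mgp*-KO 2 the highest. The C1q genes ranged from -0.42 to 0.66 in wild type and from -0.24 to 0.13 in the libraries labelled *Mgp*-KO.

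**Figure D4:**
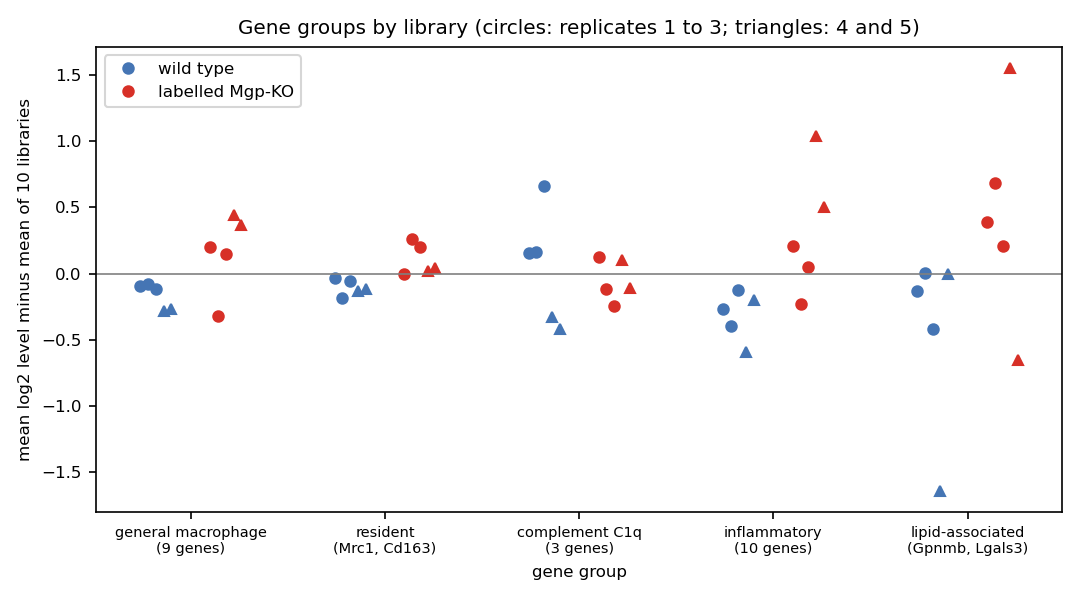
Each point is 1 library, and its height is the mean log2(normalized count + 1) of the group's tested genes minus the mean over the 10 libraries. Labelled *Mgp*-KO 4 is at 1.04 for the inflammatory and 1.55 for the lipid-associated genes, and the C1q genes overlap between the groups.

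Within replicates 1 to 3, where *Mgp* followed its labels, 22 of the 35 tested members had a positive log2 fold change and the median was 0.05 (0.02 over all genes). Again limma called 0 members, where 486 of all genes (3.54%) were called, and 7 members (20.0%) and 22.0% of all genes had an unadjusted p under 0.05. The groups did not overlap for 7 members (20.0%, where 30.6% of all genes did not overlap). *Lgals3*, *Mpeg1*, *Ccr1*, *Ccl6*, *Cd163* and *Lyz1* were higher in labelled *Mgp*-KO 1 to 3 and *C1qc* was lower. Within replicates 4 and 5 *Mgp* was present in the libraries labelled *Mgp*-KO, though lower than in wild type. There 34 members were positive, all but *Lyz1*, and the median was 0.56 (0.02 over all genes). Limma called no gene there (0% of all genes), with 855 genes (6.23%) and 4 members (11.4%) at an unadjusted p under 0.05, and the groups did not overlap for 20 members, all higher, where 41.6% of all genes did not overlap. The interaction of set and genotype missed the threshold for every tested member (lowest adjusted p 0.455 by limma, for *Ccl2*), where *Mgp* was the only gene of 13714 (0.00729%) to pass.

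Without labelled *Mgp*-KO 4 and 5, 24 members were positive, the median was 0.18 and limma called 0, with 4 members (11.4%) and 18.5% of all genes at an unadjusted p under 0.05. The groups then did not overlap for 4 members, *Lgals3*, *Mpeg1*, *Ccr1* and *Cd163*, all higher, where 17.7% of all genes did not overlap. Leaving out libraries cannot make groups overlap that were apart over all 10, so *Lgals3*, *Mpeg1* and *Ccr1* were fixed in this count and *Cd163* was the member that entered it. *Cd163* was also the one that entered without labelled *Mgp*-KO 4 alone (6.33% of all genes did not overlap), and when wild type 2 was left out as well as labelled *Mgp*-KO 4 and 5 (19.8%). Regardless of genotype, limma found 7 of the 35 members to differ between the sets (20.0%, where 38.2% of all genes did), 4 of them higher in replicates 4 and 5 (*Ptprc*, *Ccl6*, *Ccl9* and *Aif1*) and 3 lower (*Cd68*, *Csf1r* and *C1qc*).

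Other genes of the same cells were listed for comparison, and their calls also depended on the test. Over 6 further lists of 71 genes, 51 were tested. Of these 0 passed limma's test over all libraries without a further term, where 0.0656% of all genes passed. At an unadjusted p under 0.05 there were 7 higher and 3 lower, where 4.67% of all genes were higher and 5.69% lower. EdgeR called 0 of the 51 (0.0219% of all genes), and DESeq2 called 1 (2.26% of its genes), *Plin2*, which was lower. DESeq2 with the set term called 8 of the 51, where 7.42% of its genes were called. Of these, *Mertk*, *Gas6*, *Il1b*, *Spp1*, *Cd63* and *Csf2rb* were called higher and *Plin2* and *Mgl2* lower. Of the listed genes that missed the filter it called *Chil3*, a secreted lectin of alternatively activated macrophages, which had 0 to 5.86 normalized counts in wild type and 3.82 to 11.3 in the libraries labelled *Mgp*-KO, with overlapping groups (log2 fold change 2.91, adjusted p = 0.0405 by DESeq2 with the set term and 0.166 without it). The median log2 fold change was 0.25, and it was 0.18 for 11 other resident genes, 0.35 for 8 other monocyte and inflammatory genes, 0.22 for 12 other lipid-associated genes, 0.25 for 11 genes of phagocyte signalling and the oxidase, 0.29 for 6 growth factors and ligands of macrophages and -0.09 for 3 genes of alternative activation. With the set term, limma called 1 gene of these lists (2.36% of all genes), *Plin2*, a coat protein of lipid droplets that adipocytes express as well. It had 5110 to 12930 normalized counts in wild type and 1160 to 4188 in the libraries labelled *Mgp*-KO, which gave a log2 fold change of -1.58 ± 0.35 (SE; adjusted p = 0.106, and 0.0162 with the set term).

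Among genes of other blood cells, neutrophil genes were called higher in the libraries labelled *Mgp*-KO by some of the tests. DESeq2 called 5 of the 11 listed, *S100a8*, *S100a9*, *Csf3r*, *Retnlg* and *Cxcr2*, where 2.26% of its genes were called. With the set term it called the same 5, where 7.42% of its genes were called. Limma called *S100a9* alone with the set term (2.36% of all genes). Without that term it called 0 over all libraries (0.0656% of all genes), with 3 at an unadjusted p under 0.05 (10.4% of all genes). EdgeR called 0 (0.0219% of all genes). *S100a9*, a calcium-binding protein abundant in neutrophils and also made by monocytes, had 7.87, 14.2, 19.1, 22.0 and 19.0 normalized counts in wild type 1 to 5 and 207, 52.0, 40.2, 215 and 39.9 in labelled *Mgp*-KO 1 to 5. The groups did not overlap, as for 3.50% of all genes, and labelled *Mgp*-KO 1 and 4 were the highest. For *S100a9* the log2 fold change was 2.33 ± 0.54 (SE; adjusted p = 0.119 by limma, 0.0439 with the set term and 2.69e-04 by DESeq2). *S100a8*, its partner protein, had 6.92 to 17.6 against 16.4 to 139 normalized counts, and its groups overlapped. *Csf3r*, the receptor of the neutrophil growth factor G-CSF, did not overlap, with 8.79 to 21.7 against 22.3 to 133 normalized counts.

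The other neutrophil genes were low. *Retnlg* had 0 to 2.94 against 5.86 to 36.2 normalized counts and the chemokine receptor *Cxcr2* had 0 to 5.19 against 7.03 to 32.4, so neither overlapped, and both missed the filter. *Ly6g*, the marker that defines neutrophils in mice, had 0 reads in all wild-type libraries and in labelled *Mgp*-KO 3 and 5, and 0.765 to 3.24 normalized counts in the other 3 libraries. *Camp*, *Ngp*, *Ltf*, *Mpo* and *Elane* had at most 6.78 normalized counts in any library, and none of them was called. Of the 11 neutrophil genes 3 passed the filter, and the sum over the list was 43.6 to 60.3 normalized counts in wild type and 96.1 to 531 in the libraries labelled *Mgp*-KO. The sum of 5 erythroid genes overlapped between the groups, at 6436 to 19937 normalized counts in wild type and 3009 to 101447 in the libraries labelled *Mgp*-KO, highest in labelled *Mgp*-KO 4, and none of the 5 was called by limma or DESeq2, with or without the set term (0 at an unadjusted p under 0.05 by limma). Labelled *Mgp*-KO 4 was also the highest for 17 of the 35 tested members, *Lgals3*, *Mpeg1* and *Ccr1* among them, and held the largest share of mitochondrial ribosomal RNA. The part of the neutrophil and erythroid genes and of the mitochondrial ribosomal RNA in the results for the members was not tested.

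**Figure D5:**
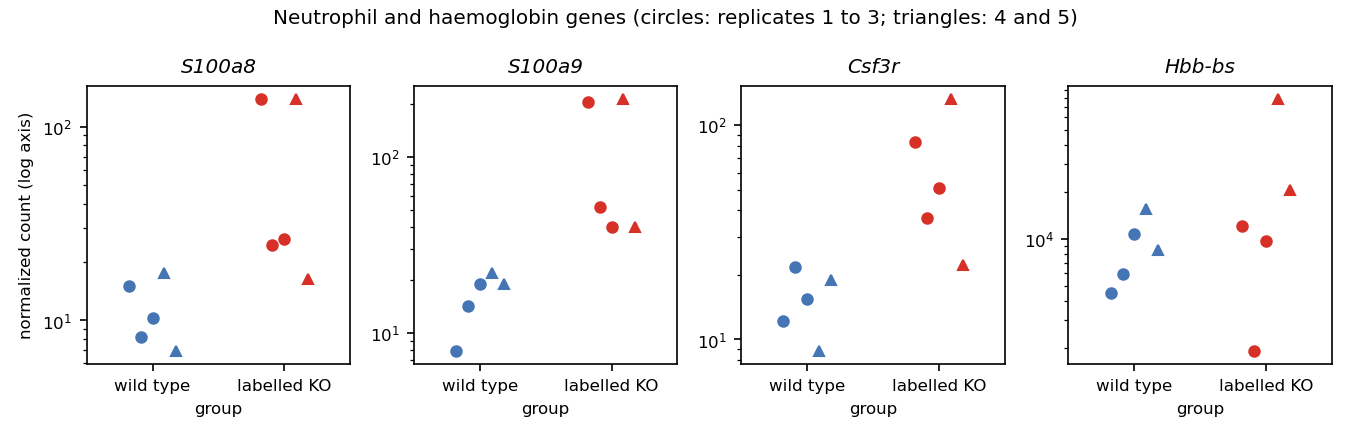
Normalized counts on a log axis of 3 neutrophil genes and 1 haemoglobin gene are shown in each library, by group. *S100a9* and *Csf3r* do not overlap between the groups, *S100a8* does, and *Hbb-bs* reaches 79111 in labelled *Mgp*-KO 4.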

How the data were processed

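RNA of iBAT was sequenced by the authors as single reads of 50 bases, mapped to mm10 with STAR 2.5.3a and counted on genes with its gene counts option. They divided the counts by size factors of DESeq2 1.38.3, and the deposited values are thus a signal of normalized counts. The annotation release and strand setting were not given in the sources used here. All values (100%) were whole multiples of 1 read within 0.01 reads, so reads were recovered. A gene at 0 is under a floor of 3 reads, or 2.15 to 5.19 normalized counts, which covers counting error only.

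Groups follow the labels. Log2(normalized count + 1) was compared in R 4.3.3 by limma 3.58.1 (mean-variance trend, Benjamini-Hochberg adjustment, filter at a mean of 10). Recovered reads were tested with edgeR 4.0.16 and DESeq2 1.42.0. The tests were also run on simulated data, with results not reported here. P-values measure the spread between single mice. Members, lists and tests were chosen with earlier results of these data known. Every member is accounted for, and library values are given for members that limma called over all libraries or with the set term (none), members that did not overlap, and *Mrc1*, *Timd4*, *Cd163*, *Trem2*, *Gpnmb*, *Ccr2* and *Ccl2*. Of the further lists, genes that limma called in these fits are named. *Ccl6*, *Itgam*, the neutrophil genes, *Hbb-bs* and the genes of the further lists that only other fits called were outside this rule and were chosen after their values were seen. Same-numbered libraries were not treated as pairs. Windows of 50 bases were compared over GENCODE transcripts of GRCm38.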

Additional observations from a re-analysis of the deposited data

Results flagged for a closer look

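In each group of 5 libraries, a highest or lowest library that stood far from the nearest other one (a gap of more than 0.71 of the group's range, Dixon's value for 5) was singled out. Over 70 groups (the 35 tested members in both genotypes) this gave 9 values, where chance gives about 1 in 20 groups. Labelled *Mgp*-KO 4 was too high for 5 members. It had 210 normalized counts of *Lgals3* (the nearest library of its group had 82.1), 35.6 of *Ccr1* (16.6), 61.5 of *Ccl2* (16.6), 126 of *Itgam* (38.7) and 288 of *Cybb* (124). Wild type 5 stood above its group for the receptor *Ccr2*, with 107 (47.9), and for *Cybb*, with 118 (90.6). Wild type 3 had 104 normalized counts of *Tyrobp* (82.1). Wild type 4 had 4.40 of *Gpnmb*, where the nearest library had 36.0.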

How the results depend on the processing

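The test was repeated under 26 other settings. DESeq2 within replicates 1 to 3, and limma without wild type 2 and labelled *Mgp*-KO 4 and 5, were chosen after the data were examined. Depth limits the low members, since *Ccl2*, *Timd4*, *Trem2* and *Ccr1* rest on 1 to 26 reads in most libraries, and labelled *Mgp*-KO 4 and 5 hold reads of *Mgp*. Limma called 0 members in each setting in which it was run, with 3 to 7 members (8.57 to 20.0%) at an unadjusted p under 0.05 beside 6.23 to 22.0% of all genes, and edgeR also called 0 (6 at that level). DESeq2 called 1 (*Lgals3*), with the set term 4 and within replicates 1 to 3 again 1 (*Cd163*). The log2 fold change of *Lgals3* was 0.86 to 1.61 over the other settings, that of *Ccr1* 0.75 to 1.49, that of *Mpeg1* 0.58 to 0.77 and that of *Ccl6* 0.26 to 0.90, so none of the 4 reversed.

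Genes called over the whole table numbered 9, and 29 with a pseudocount of 10, 1 with no filter on low values, 15 with a mean of at least 50, 324 with the set term, 36 after quantile normalization, 3 by edgeR, 374 by DESeq2, 1152 by DESeq2 with the set term, 486 within replicates 1 to 3, 0 within replicates 4 and 5, 267 without labelled *Mgp*-KO 4 and 5, 97 without these and wild type 2, and 1348 by DESeq2 within replicates 1 to 3. Leaving out 1 library at a time gave 0 to 93 genes (93 without labelled *Mgp*-KO 4), and 0 members each time. With the replicate number as a block limma called 270 genes and 0 members, and of the further lists it then called *Csf2rb* (adjusted p = 0.0191) and *Plin2* (0.0211), and of the neutrophil genes *S100a8* (0.0448). The numbers were not taken as pairs, because the correlation of deviations from the group means was 0.0559 for number 2 and 0.327 to 0.527 for the others, with a mean of 0.390 for the same number and 0.416 for other numbers of the same set. The median log2 fold change of the members was 0.0507 within replicates 1 to 3 (0.0680 by DESeq2) and 0.56 within replicates 4 and 5, and 0.25 to 0.44 with 1 library left out. Members whose groups do not overlap numbered 1 after quantile normalization, 7 within replicates 1 to 3, 20 within replicates 4 and 5, and 3 to 4 with 1 library left out, where the count cannot fall below the 3 of all libraries.

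Several members changed sign in some settings, among them *Ccl2*, which had the largest log2 fold change over all libraries. Within replicates 1 to 3 the log2 fold change was -0.0522 for *Fcgr1*, -0.13 for *Itgax*, -0.0131 for *Cd68*, -0.0032 for *Ccl2*, -0.27 for *Cx3cr1* and -0.0266 for *Csf1r*, and by DESeq2 there -0.0675 for *Fcgr1*, -0.28 for *Cx3cr1*, -0.0112 for *Cd68*, -0.0383 for *Csf1r* and -0.0157 for *Itgax*. Within replicates 4 and 5 it was 0.21 for *Fcer1g*, 0.89 for *Aif1*, 0.29 for *C1qc*, 0.37 for *C1qb*, 0.46 for *C1qa*, 0.24 for *Mrc1*, -0.0734 for *Lyz1* and 0.56 for *Adgre1*. Without labelled *Mgp*-KO 4 and 5 it was -0.0796 for *Ptprc*, -0.22 for *Cx3cr1*, -0.0711 for *Fcgr1*, 0.0260 for *Adgre1*, -0.0835 for *Ccl9* and -0.0472 for *Cybb*, and without wild type 2 as well -0.16, -0.18, -0.15, 0.10, -0.22 and -0.0609 in the same order. DESeq2 gave -0.0115 for *Csf1r* and 0.30 for *Aif1*, with the set term -0.00588 for *Cx3cr1*, and edgeR gave 0.29 for *Aif1* and -0.0206 for *Csf1r*. A pseudocount of 10 gave 0.0551 for *Aif1*, and quantile normalization -0.0603 for *Tyrobp*, -0.0441 for *Cx3cr1* and -0.0178 for *Csf1r*. With 1 library left out, the ranges that crossed 0 were -0.27 to 0.13 for *Adgre1*, -0.17 to 0.39 for *Cd68*, -0.26 to 0.24 for *Csf1r*, -0.20 to 0.0605 for *Mrc1*, -0.19 to 0.13 for *C1qa*, -0.16 to 0.0554 for *C1qb*, -0.0330 to 0.26 for *Fcgr1*, -0.17 to 0.0681 for *Fcer1g*, -0.12 to 0.17 for *Tyrobp*, -0.12 to 0.18 for *Cx3cr1*, -0.45 to 0.44 for *Aif1* and -0.00600 to 1.06 for *Gpnmb*. The cause of these reversals was not tested.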

Other observations

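The genes named here belong to the lists for comparison and were chosen after their values were seen. *Mertk* and *Gas6*, a receptor for dying cells and its bridging ligand, were higher in the library labelled *Mgp*-KO than in the wild-type library of its number for all 5 numbers, as for 8.95% of all genes. *Mertk* had 157 to 377 normalized counts in wild type and 239 to 860 in the libraries labelled *Mgp*-KO, which gave a log2 fold change of 1.0 ± 0.35 (SE; adjusted p = 0.325 by limma and 0.0284 by DESeq2 with the set term). *Gas6* had 327 to 721 and 705 to 1250, with a log2 fold change of 0.76 ± 0.24 (SE; adjusted p = 0.271 by limma, 0.0583 with the set term and 0.00426 by DESeq2 with the set term). *Csf2rb*, the signalling chain of the receptor for GM-CSF, had a log2 fold change of 1.02 (adjusted p = 0.301 by limma and 0.0308 by DESeq2 with the set term), also in all 5 numbers. Within replicates 1 to 3 limma called 2 genes of the lists for comparison, where 3.54% of all genes were called. *Csf2rb* was higher (log2 fold change 0.94, adjusted p = 0.0367) and *Plin2* was lower (log2 fold change -1.63, adjusted p = 0.0427).

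*Mgl2*, a lectin of macrophages and dendritic cells, and *Lipa*, the lysosomal acid lipase, were lower in all 5 numbers. The share of all genes lower in all 5 numbers was not counted. *Mgl2* had 92.8 to 137 normalized counts in wild type and 26.8 to 104 in the libraries labelled *Mgp*-KO, which gave a log2 fold change of -0.91 (adjusted p = 0.328 by limma and 0.0470 by DESeq2 with the set term). *Lipa* had a log2 fold change of -0.50 (adjusted p = 0.474). *Spp1*, which encodes osteopontin, a protein of lipid-associated macrophages and other cells, had 1.47 to 10.5 and 4.11 to 39.0 normalized counts, with a log2 fold change of 1.91 ± 0.69 (SE; adjusted p = 0.332 by limma and 0.0369 by DESeq2 with the set term). *Inpp5d*, which encodes the phosphatase SHIP1 of blood cells, did not overlap between the groups, as for 3.50% of all genes. It had 88.3 to 134 and 139 to 233 normalized counts and a log2 fold change of 0.58 ± 0.21 (SE; adjusted p = 0.330). Over all libraries, limma without a further term called none of these genes.

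The B cell genes, all 6 tested, had a median log2 fold change of 0.52, the 3 tested T cell genes -0.16 and the 5 tested mast cell genes 0.37. In this order the medians were 0.18, 0.51 and 0.29 within replicates 1 to 3, and 0.85, -0.30 and 0.06 within replicates 4 and 5. The median was 0.38 for 6 endothelial genes and -0.43 for 10 genes of brown adipocytes, all 10 of which were negative. Of these 10, limma called 0 over all libraries (0.0656% of all genes). With the set term it called 3, all lower (2.36% of all genes). Their part in the values of the macrophage genes was not tested.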
